A study of Homo sapiens with 28 samples.

Results

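The MiT/TFE family of transcription factors has 4 members, TFEC, MITF, TFEB and TFE3, and all 4 of them were measured by name, with 1 probe set each, among 17687 named genes. They were taken by their gene names, with values of these arrays already known, so their levels and changes are described below and not tested. Clariom S arrays were hybridized with RNA of 7 human acute myeloid leukemia (AML) cell lines cultured for 8 days in 1 µM Pinometostat, an inhibitor of the histone methyltransferase DOT1L, or in DMSO at 0.01%. The MLL-r lines, which carry a rearranged MLL gene, were NOMO-1, MV4-11, THP-1 and MOLM-13, and the non-MLL-r lines were HL-60, U-937 and OCI-AML3. Each line has 2 treated and 2 control arrays, 28 in all, and each line is a single established culture model. Whether the 2 arrays of a condition came from separate cultures is not given in the sources used here, so every error within a line rests on the spread between arrays, which may be technical. The SE of a limma fit draws the variance of each gene toward that of all genes. It can therefore be larger or smaller than the spread of the gene's own arrays. Values are log2 signals, with array medians over the named genes of 5.67 to 5.8, and a difference of 1 on this scale is a doubling. The deposited signals carry no detection calls, so whether a low signal is above background was not tested, and a fold is a ratio of signals.

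MiT/TFE proteins share a basic helix-loop-helix leucine zipper, dimerize with each other, and bind E-boxes in the promoters of lysosomal and autophagy genes (the CLEAR network) as well as M-boxes in pigment and osteoclast genes. In fed cells TFEB, TFE3 and some forms of MITF are phosphorylated at the lysosome by mTORC1 and held in the cytoplasm by 14-3-3 proteins, and starvation or lysosomal calcium release sends them to the nucleus, so that much of their control does not pass through their own mRNA. In blood cells MITF is known for mast cells and osteoclasts, TFEB and TFE3 for macrophages, and TFEC is expressed mainly in macrophages and, in mouse, lies downstream of PU.1 and interleukin 4 signaling. The arrays measured mRNA only, and they cannot tell fewer cells of a type from less RNA per cell.

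Reference sequences show the letters on which this family is known to work, and the start regions of the member whose signal moved most. The RefSeq promoter table (GRCh38.p14, 250 bases before to 50 after each start) lists 2 start sites for TFEC, 3 for MITF, 3 for TFEB and 1 for TFE3, and the single probe set of a gene does not separate its starts. Both TFEC windows hold 1 PU box (GAGGAA, either strand), the element of the myeloid factor PU.1, in capitals below, and 27.9% of the 35116 promoter windows hold one too.
TFEC, upstream start, chr7:116030714-116031013, minus strand: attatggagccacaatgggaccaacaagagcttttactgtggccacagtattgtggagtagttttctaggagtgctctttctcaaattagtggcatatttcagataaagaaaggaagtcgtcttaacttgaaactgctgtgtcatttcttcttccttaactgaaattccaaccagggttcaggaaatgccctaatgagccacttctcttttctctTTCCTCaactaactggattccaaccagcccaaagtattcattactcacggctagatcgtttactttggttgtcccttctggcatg
TFEC, downstream start, chr7:115968260-115968559, minus strand: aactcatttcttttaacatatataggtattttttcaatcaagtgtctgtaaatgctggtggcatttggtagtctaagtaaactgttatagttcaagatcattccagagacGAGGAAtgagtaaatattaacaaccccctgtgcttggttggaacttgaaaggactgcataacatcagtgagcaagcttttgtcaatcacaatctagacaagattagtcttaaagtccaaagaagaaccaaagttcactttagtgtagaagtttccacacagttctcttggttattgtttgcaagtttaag
The E-box core CACGTG and the M-box core TCATGTG, searched on both strands, were found in none of the windows of the 4 members, which says only that these letters are not there. The most downstream MITF start, used for the melanocyte form, holds the cAMP response element TGACGTCA (1.85% of all windows).
MITF, melanocyte start, chr3:69936428-69936457, plus strand: tgaaaaaaagcaTGACGTCAagccaggggg

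Of 54 measured CLEAR genes, 37 have a promoter window and 18 of these (48.6%) hold CACGTG, against 10.8% of 14250 measured genes with a window. The CLEAR genes were defined in the field by such sites, so this share describes the list. Among the 14 CLEAR genes that rose in a line below, 9 have a window and 4 hold the E-box, and among the 40 that did not, 28 have a window and 14 hold it. The 4 with an E-box and a rise are shown with the extended E-box TCACGTG, which contains the core, in capitals (on the opposite strand it reads CACGTGA, as in CTSD).
CTSA, chr20:45891280-45891309, plus strand: ggaggaagactgTCACGTGgcgccggagtt
CTSD, chr11:1763957-1763986, minus strand: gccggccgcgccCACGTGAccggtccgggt
SLC36A1, chr5:151447582-151447611, plus strand: tgggcggtgggaTCACGTGatgaggtccgg
VPS8, chr3:184812170-184812199, plus strand: cagtgggtgcggTCACGTGggccggcggtc
The M-box is shown, in capitals, for GPNMB, a macrophage glycoprotein and known MITF target, whose window holds 2 of them on the opposite strand (CACATGA), and for the pigment enzyme gene TYRP1. Of all windows, 2.92% hold an M-box core, and both genes return below with their signals.
GPNMB, distal site, chr7:23246640-23246669, plus strand: gtgagtcataagCACATGAgttgtaagagg
GPNMB, proximal site, chr7:23246701-23246730, plus strand: gcttaataccatCACATGAtcctccccgag
TYRP1, chr9:12693228-12693257, plus strand: gttggaagggaaTCATGTGctgatcaagtc

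TFEC (chr7:115935152-116159896, minus strand) was the member that separated the lines. In DMSO, its signal averaged 6.8 over the 4 MLL-r lines (SD between lines 0.51) and 3.33 over the 3 non-MLL-r lines (SD 0.65), a difference of 3.47 log2. The MLL-r control arrays ran from 5.72 to 7.56 and the non-MLL-r control arrays from 2.55 to 4.1, so the groups did not overlap. The share of all genes that separate these lines in this way was not counted, and TFEC was taken with its values known. The order of the control means was MOLM-13 (7.31), MV4-11 (7.16), NOMO-1 (6.48), THP-1 (6.27), U-937 (4.06), OCI-AML3 (3.11) and HL-60 (2.82). MOLM-13 and MV4-11, NOMO-1 and THP-1, and OCI-AML3 and HL-60 are neighbors in this order whose arrays overlapped. After Pinometostat the means ran from 8.94 in MV4-11 and 7.87 in THP-1 over 7.48 in MOLM-13, 5.84 in NOMO-1, 5.33 in U-937 and 4.3 in OCI-AML3 to 3.33 in HL-60. THP-1, below NOMO-1 in DMSO, then stood above MOLM-13, with which its arrays overlapped, and the NOMO-1 arrays overlapped those of U-937.

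TFEC signal was higher after Pinometostat in 6 of the 7 lines, with a mean change of 0.84 log2 (SD between lines 0.86). In MV4-11 the treated arrays read 9.23 and 8.64, against 7.49 and 6.83 in the controls, a difference of 1.78 ± 0.34 log2 (SE of the limma fit, n = 2 against 2), which is 3.42-fold. In THP-1 they read 8.34 and 7.4, against 6.82 and 5.72 in control cells (1.6 ± 0.43, or 3.03-fold). In both lines every treated array was above every control array. OCI-AML3, with a low TFEC signal, had 4.59 and 4.0 in treated and 3.59 and 2.63 in control cells (1.19 ± 0.37), its control arrays lying at the low end of the scale. U-937 had the tightest arrays, 5.29 and 5.37 after treatment against 4.03 and 4.1 in DMSO (1.26 ± 0.2, or 2.4-fold). Neither of these lines is MLL-r, and in neither did the groups overlap. The OCI-AML3 change fell below the 1 log2 limit without treated replicate 1 (0.89) or control replicate 2 (0.71), and that of THP-1 was 1.05 without control replicate 2. HL-60 read 3.33 and 3.32 in treated and 2.55 and 3.09 in control cells (0.51 ± 0.35), also without overlap.

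MOLM-13 and NOMO-1 were different. MOLM-13, the line with the highest control signal of TFEC, had 7.85 and 7.12 in treated and 7.56 and 7.06 in control cells, and its arrays interleaved (0.17 ± 0.38). NOMO-1 had 6.56 and 5.13 in treated and 6.62 and 6.33 in control cells, a change of -0.63 ± 0.47. The replicate numbers of NOMO-1 differed, with changes of -0.07 and -1.2, so the lower mean rests on treated replicate 2, without which the change was 0.08. The average TFEC change was 0.73 over the MLL-r lines (SD 1.16) and 0.99 over the non-MLL-r lines (SD 0.41), and the difference between these, -0.26 ± 0.53, was smaller than its error.

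**Figure D1:**
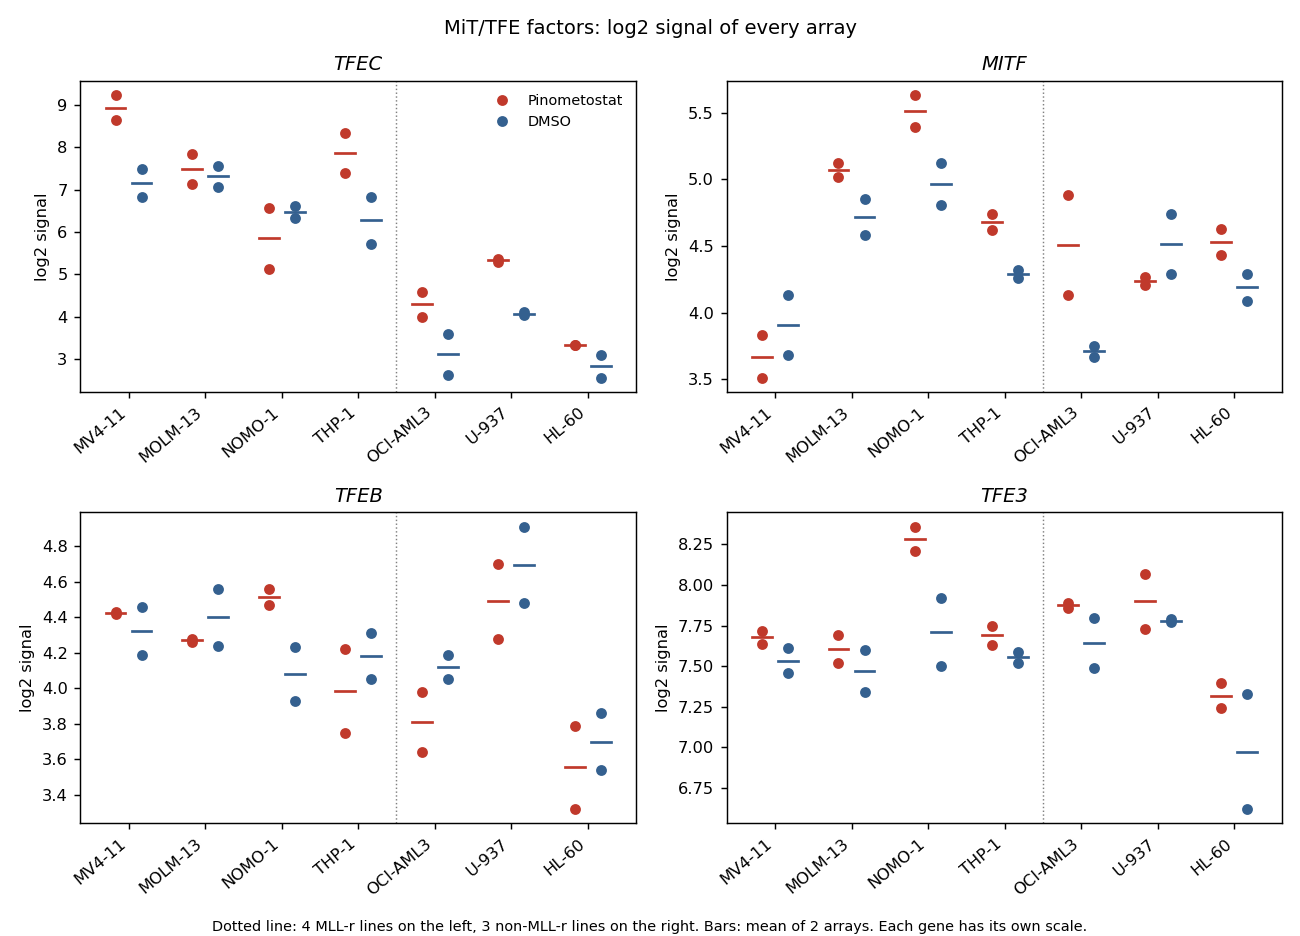
Log2 signal of TFEC, MITF, TFEB and TFE3 in each of the 28 arrays, by line, with Pinometostat (red) left of DMSO (blue); bars are means of 2 arrays and each gene has its own axis. TFEC control arrays of the MLL-r lines lie between 5.72 and 7.56 and those of the non-MLL-r lines between 2.55 and 4.1.

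MITF (chr3:69739464-69968332, plus strand), the regulator of melanocytes, osteoclasts and mast cells, had a low signal and small changes. It was higher after treatment in 5 lines and lower in 2, with a mean change of 0.27 (SD 0.39). OCI-AML3 had the largest change, with 4.13 and 4.88 in treated and 3.75 and 3.67 in control cells (0.79 ± 0.33). NOMO-1 followed, with 5.63 and 5.39 in treated and 5.12 and 4.81 in control cells (0.54 ± 0.34). In both lines all treated arrays lay above the controls. Treated arrays also lay above controls in THP-1 (4.62 and 4.74 against 4.32 and 4.26, 0.39 ± 0.29). The same held in MOLM-13 (5.02 and 5.12 against 4.58 and 4.85, 0.35 ± 0.32). HL-60 was alike, with 4.43 and 4.63 in treated and 4.09 and 4.29 in control cells (0.34 ± 0.33). Each of these 3 changes is close to its own error. MITF was lower in U-937, without overlap (4.21 and 4.27 in treated and 4.29 and 4.74 in control cells, -0.27 ± 0.23). MV4-11 read 3.83 and 3.51 after treatment and 3.68 and 4.13 in DMSO (-0.24 ± 0.3), and its groups overlapped. Control means ran from 3.71 in OCI-AML3 to 4.97 in NOMO-1, and every line overlapped its neighbor in this order. Averages in DMSO were 4.47 in MLL-r lines (SD 0.47) and 4.14 in non-MLL-r lines (SD 0.4), so MITF did not separate them beyond their spread.

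TFEB (chr6:41683978-41736223, minus strand), which drives lysosome biogenesis, also had a low signal, and its mean change was the smallest in size among the members. Its arrays read 3.32 to 4.91, under the array medians of 5.67 to 5.8, and whether this is above background was not tested. The mean TFEB change was -0.06 (SD 0.25), with line changes from -0.32 to 0.43, higher in 2 lines and lower in 5. NOMO-1 was the line with a higher TFEB signal and no overlap, with 4.47 and 4.56 in treated and 4.23 and 3.93 in control cells (0.43 ± 0.33). OCI-AML3 was the line with a lower signal and no overlap, with 3.98 and 3.64 in treated and 4.05 and 4.19 in control cells (-0.32 ± 0.31). The other 5 lines had overlapping groups and changes between -0.2 (U-937) and 0.1 (MV4-11). TFEB control means were 3.7 in HL-60, 4.08 to 4.4 in OCI-AML3 and the 4 MLL-r lines, and 4.7 in U-937. HL-60 was the line that did not overlap its neighbor in this order.

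TFE3 (chrX:49028726-49043357, minus strand), which shares most known functions with TFEB, was higher after treatment in 7 of 7 lines, by 0.24 on average (SD 0.17). Both replicate numbers were higher in 5 lines, and replicate 1 was lower in U-937 (-0.04) and HL-60 (-0.09). The share of all genes that were higher in every line was not counted. NOMO-1 again led, with 8.21 and 8.36 in treated and 7.5 and 7.92 in control cells, without overlap (0.58 ± 0.34, or 1.5-fold). HL-60 read 7.24 and 7.4 in treated and 7.33 and 6.62 in control cells, which overlapped (0.34 ± 0.36). OCI-AML3 read 7.86 and 7.89 after treatment, above 7.49 and 7.8 in DMSO (0.23 ± 0.31). The remaining 4 lines changed by 0.12 to 0.14, less than their errors of 0.22 to 0.32 in a fit that leaves out the replicate numbers. Of these lines MOLM-13 and U-937 overlapped. By replicate number the changes were 0.17 and 0.11 in MV4-11, 0.18 and 0.09 in MOLM-13, 0.11 and 0.15 in THP-1, and -0.04 and 0.28 in U-937. Control means spanned 0.8 log2, the narrowest range of the 4 members, between 6.98 in HL-60 and 7.78 in U-937.

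Over the 28 pairs of a member and a line, 4 were called higher and 0 lower by the rule used for all genes (unadjusted p under 0.05 in limma and a change of at least 1 log2). All 4 are TFEC, in MV4-11, THP-1, OCI-AML3 and U-937. Over all genes and lines, 1.74% of pairs were called higher and 0.896% lower, with the share of genes differing by line. NOMO-1 had 4.75% of genes called higher and 3.12% lower, MV4-11 2.39% and 1.52%, OCI-AML3 1.9% and 0.537%, THP-1 1.72% and 0.718%, MOLM-13 0.859% and 0.0848%, U-937 0.3% and 0.113%, and HL-60 0.26% and 0.175%. Treated and control arrays did not overlap in 17 of the 28 pairs, where this held for 30% of all pairs of a gene and a line (37.5% in NOMO-1, 37.4% in MV4-11, 30.1% in THP-1, 29.6% in U-937, 28.9% in OCI-AML3, 23.8% in MOLM-13 and 22.7% in HL-60). As the members were chosen with these changes known, nothing is read from these shares.

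**Figure D2:**
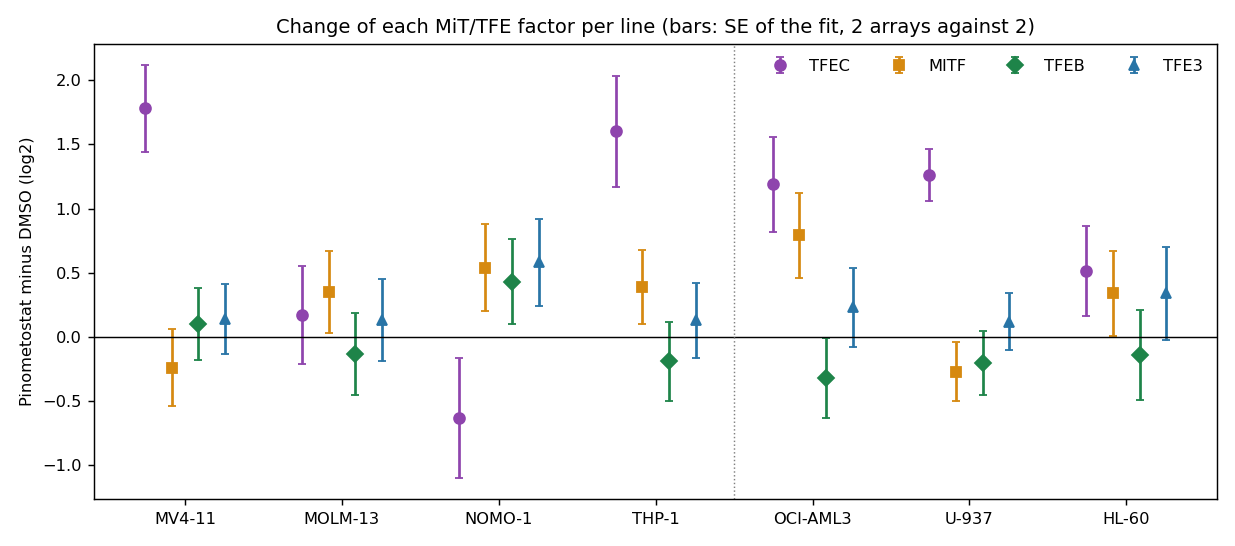
Pinometostat minus DMSO (log2) of TFEC, MITF, TFEB and TFE3 in each line; bars are the SE of the limma fit, 2 arrays against 2. TFEC changed by 1.78 in MV4-11, 1.6 in THP-1, 1.26 in U-937 and 1.19 in OCI-AML3, whereas in NOMO-1 it stood at -0.63 and TFE3, MITF and TFEB at 0.58, 0.54 and 0.43.

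NOMO-1 was thus the line in which TFE3 and TFEB had their largest changes and MITF its second largest, and the line in which TFEC was lower. Over the 14 means of a line and a condition, which share lines and normalization, Pearson's r between members was 0.57 for TFEB and TFE3, 0.43 for TFEC and TFEB, 0.4 for MITF and TFE3, 0.24 for TFEC and TFE3, 0.12 for TFEC and MITF, and 0.08 for MITF and TFEB. Across all named genes, those most like TFEC over these 14 means were the cytokine receptor kinase JAK2 (r = 0.93), the myeloid exonuclease PLD4 (0.916), ZFY (0.904), the collagen-binding decoy receptor LAIR2 (0.895) and the phosphodiesterase PDE3B (0.892). JAK2 was called in none of the 7 lines, and its mean change was 0.26 ± 0.12 log2 (SE over lines). The mean changes of PLD4, ZFY, LAIR2 and PDE3B were -0.0, -0.02, 0.02 and 0.18. MITF was most like the stress-response gene IER3 (0.892), ADAP2 (0.874) and LINC01235 (0.863). IER3 was called higher in MOLM-13, NOMO-1 and OCI-AML3, by 1.54, 1.74 and 1.42 log2. TFEB was most like FAM110A (0.928), the deacetylase SIRT2 (0.915) and the acetyltransferase KAT6A (0.901), and TFE3 most like the protein kinase A subunit PRKACA (0.932), EEPD1 (0.925) and TNFAIP2 (0.924). These are the highest of 17687 values, over 14 points from 7 lines, and are a description. They take in differences between lines as well as changes with treatment, and the TFEC control means had an SD of 1.93 between lines.

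The regulators of where MiT/TFE proteins reside were called at shares near those of all genes. Of 21 measured Rag GTPase and mTORC1 regulators, 1 gene rose and 1 fell in any line, 2 gene-line pairs each of 147 (1.36%, against 1.74% higher and 0.896% lower over all genes), and the median of their mean changes was -0.01. These counts moved when the arrays of 1 condition and 1 replicate number were left out, which takes 1 array from each of the 7 lines at once. RRAGD, a Rag GTPase that recruits these factors to the lysosome and is itself their target, rose in NOMO-1, with 7.33 and 7.28 in treated and 5.57 and 5.23 in control cells (1.91 ± 0.33 log2, limma adjusted p = 0.0218). In THP-1 RRAGD had 8.22 and 7.76 in treated and 7.16 and 6.66 in control cells (1.08 ± 0.32, limma adjusted p = 0.347, or 0.00867 in a blocked fit, which takes arrays of 1 replicate number as a pair). In both lines all treated arrays were above the controls, and the other 5 lines changed by -0.47 to 0.24. NPRL2, a subunit of the GATOR complex that restrains mTORC1, fell in the same lines. It had 3.8 and 2.99 in treated and 5.18 and 4.56 in control THP-1 cells (-1.48 ± 0.36, limma adjusted p = 0.16, blocked 0.00123). In NOMO-1 it had 5.03 and 4.33 in treated and 5.88 and 5.63 in control cells (-1.07 ± 0.37, limma adjusted p = 0.25, blocked 0.00341).

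Among 16 measured phosphatases, kinases and shuttling proteins, 1 pair of 112 was called, and it was lower (0.893%, against 0.896% over all genes), or 4 pairs without treated replicate 1 or without control replicate 2. The calcineurin subunit PPP3R1, which helps to release TFEB from the cytoplasm, had 8.85 and 8.36 in treated and 10.27 and 9.67 in control U-937 cells (-1.36 ± 0.28, limma adjusted p = 0.401). The 14-3-3 gene YWHAE was called in no line, with changes from -0.74 (MV4-11) to -0.03 (U-937). Of the 8 measured upstream factors and partners, IRF8, a myeloid factor and MITF partner, fell in OCI-AML3 (11.08 and 10.38 in treated and 12.08 and 11.66 in control cells, -1.13 ± 0.34, limma adjusted p = 0.272, blocked 0.013). ZEB2 was not called and changed by -0.84 in OCI-AML3 and 0.59 in NOMO-1.

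CLEAR targets were called higher in 3 of the 4 MLL-r lines, mostly in NOMO-1. Over 54 genes of lysosomal enzymes and membrane proteins, the proton pump and autophagy, 18 of 378 gene-line pairs were called higher (4.76%, against 1.74% over all genes) and 0 lower. These were 12 genes in NOMO-1 (22.2% of the list, against 4.75% of all genes called higher there), 4 in MV4-11 (7.41% against 2.39%), 2 in MOLM-13 (3.7% against 0.859%) and 0 in each of the other 4 lines. At a limma adjusted p under 0.05 and any fold, 5 pairs passed as higher (0.543% of all pairs), and 27 in the blocked fit (2.41% of all pairs). Without NOMO-1, 6 of 324 pairs were called higher (1.85%, against 1.24% over all genes). The CLEAR lists were bright, with mean control signals of 6.32 to 8.42 per line against array medians of 5.67 to 5.8. No share of genes of like brightness was counted. The median change of the 54 genes was 0.44 in NOMO-1, 0.24 in MV4-11, 0.14 in U-937, 0.1 in THP-1 and between -0.03 and 0.05 elsewhere, where the median of all genes lay between -0.03 and 0 in each line. THP-1, OCI-AML3 and U-937, with a TFEC change above 1 log2, had no called CLEAR gene, with largest changes of 1.0, 0.59 and 0.9. MV4-11 had both a TFEC change of this size and called CLEAR genes. NOMO-1 had most of the calls with a lower mean TFEC signal, but its TFEC arrays overlapped (changes of -0.07 and -1.2 by replicate number). A link between TFEC and the CLEAR genes was not tested.

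**Figure D3:**
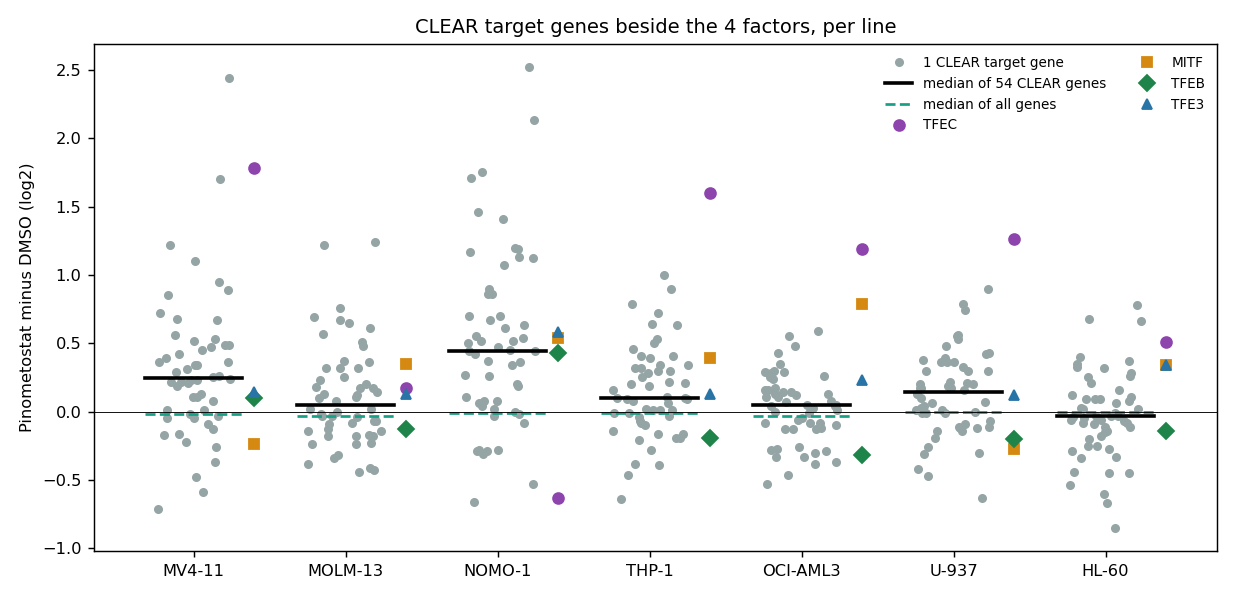
Pinometostat minus DMSO (log2) of the 54 CLEAR targets in each line (grey points, horizontally jittered), with their median (black), the median of all genes (green dashes) and the 4 factors at the right of each column. The median is highest in NOMO-1 (0.44), where TFEC is at -0.63, and in THP-1, where TFEC is at 1.6, it is 0.1. Any link between TFEC and the targets was not tested.

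Within the lysosomal list (25 of 30 genes measured), 10 of 175 pairs rose (5.71%, against 1.74% over all genes) and 0 fell, with 3 of the 10 outside NOMO-1. PSAP, the precursor of the saposins that activate sphingolipid hydrolases, rose in NOMO-1 with 11.89 and 11.54 in treated and 10.25 and 9.77 in control cells (1.71 ± 0.35, limma adjusted p = 0.0444). In MV4-11 PSAP had 10.23 and 9.9 in treated and 8.58 and 8.16 in control cells (1.7 ± 0.3, limma adjusted p = 0.0265). These changes were alike in size, and no array of one condition reached those of the other. The amino acid exporter SLC36A1, whose E-box is shown above, had 8.19 and 7.5 in treated and 6.34 and 5.84 in control NOMO-1 cells (1.75 ± 0.38, limma adjusted p = 0.0556, blocked 1.52e-05). The ceramidase ASAH1 rose there by 1.46 ± 0.35 (limma adjusted p = 0.0796, blocked 0.000133) and the protective protein CTSA by 1.41 ± 0.37 (0.114, blocked 0.000276). CTSD, a lysosomal protease shown above for its E-box and chosen after its values were seen, was called higher in MOLM-13 (1.24) and NOMO-1 (1.13). Of 91 pairs of 13 proton pump subunits 1 was called (1.1%, against 1.74% over all genes; 3 without control replicate 1 and 0 without treated replicate 1 or control replicate 2), ATP6V1B2 in NOMO-1 (10.75 and 10.16 in treated and 9.71 and 9.05 in control cells, 1.07 ± 0.38, limma adjusted p = 0.28, blocked 0.00292). ATP6V0D2, the osteoclast subunit, was called nowhere, with 0.86 in NOMO-1 and -0.71 in MV4-11.

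Autophagy CLEAR targets (16 of 16 measured) rose in 7 of 112 pairs (6.25%, against 1.74% over all genes) and fell in 0, with 3 of the 7 outside NOMO-1. GABARAPL1, a starvation-induced member of the family that builds autophagosome membranes, was the CLEAR gene called in 3 lines. It had 8.15 and 8.12 in treated and 5.5 and 5.73 in control NOMO-1 cells (2.52 ± 0.33, or 5.76-fold, limma adjusted p = 0.00585). MV4-11 gave nearly the same change, with 6.75 and 6.81 in treated and 4.26 and 4.41 in control cells (2.44 ± 0.27, or 5.44-fold, adjusted p = 0.0029). MOLM-13 had 7.61 and 6.91 in treated and 6.14 and 5.94 in control cells (1.22 ± 0.36, adjusted p = 1.0, blocked 0.0345). The other lines stayed between -0.47 (U-937) and 0.34 (THP-1). The promoter window of GABARAPL1 holds neither the E-box nor the M-box core. WIPI1, which binds the phosphoinositide of forming autophagosomes, rose in NOMO-1, with 8.86 and 8.74 in treated and 6.63 and 6.72 in control cells (2.13 ± 0.33, limma adjusted p = 0.0121). WIPI1 was above 0 in all 7 lines, with a mean change of 0.76 ± 0.2 (adjusted p = 0.227 over lines). The kinase ULK1, which starts autophagy, rose in NOMO-1 by 1.2 ± 0.36 (adjusted p = 0.182, blocked 0.0011), and VPS8, a subunit of the endosomal CORVET tether, rose in MV4-11 by 1.22 ± 0.37 (0.229, blocked 0.0117).

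Among 12 metabolic and feedback targets, RRAGD among them, 8 of 84 pairs rose (9.52%, against 1.74% over all genes; 14 pairs without control replicate 1) and 0 fell, 3 in NOMO-1, 3 in THP-1 and 1 each in MOLM-13 and OCI-AML3. GPNMB had the largest change, in MOLM-13, where treated cells read 9.54 and 8.68 and control cells 4.8 and 5.73 (3.84 ± 0.43, or 14.34-fold, limma adjusted p = 0.0325). NOMO-1 had 8.74 and 7.69 in treated and 6.16 and 5.61 in control cells (2.33 ± 0.43, adjusted p = 0.0267). THP-1 had 9.73 and 9.05 in treated and 8.29 and 7.41 in control cells (1.54 ± 0.37, adjusted p = 0.156, blocked 0.000907). In these 3 lines all treated arrays exceeded all control arrays. U-937, whose control signal of GPNMB was high already (9.03 and 8.38), reached 9.74 and 9.34 after treatment (0.84 ± 0.28, not called), and MV4-11, OCI-AML3 and HL-60 changed by -0.03, 0.27 and -0.05. In MV4-11, the line with the largest TFEC change, the GPNMB change did not exceed its error, and a link between TFEC and GPNMB was not tested. HIF1A, the hypoxia factor, rose in NOMO-1 (10.68 and 10.53 in treated and 9.41 and 8.11 in control cells, 1.85 ± 0.45, adjusted p = 0.085, blocked 3.56e-05), and PPARGC1A, the coactivator of mitochondrial biogenesis, rose in THP-1 (6.3 and 5.68 in treated and 4.77 and 4.42 in control cells, 1.39 ± 0.32, adjusted p = 0.13, blocked 0.00189).

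Osteoclast and macrophage targets (13 of 14 measured, GPNMB among them) were called higher in 16 of 91 pairs (17.6%, against 1.74% over all genes) and lower in 1 (1.1%, against 0.896%). Without NOMO-1, 10 of 78 pairs were higher (12.8%, against 1.24%) and 1 lower (1.28%, against 0.525%), and lower calls numbered 4 over the 7 lines without treated replicate 2 or without control replicate 1. The gelatinase MMP9 rose in 4 lines. It had 9.97 and 10.46 in treated and 6.86 and 6.86 in control NOMO-1 cells (3.36 ± 0.34, or 10.28-fold, limma adjusted p = 0.00217). It rose by 2.67 ± 0.36 in MOLM-13 (adjusted p = 0.0692, blocked 0.000115), 2.35 ± 0.31 in THP-1 (0.00694) and 1.61 ± 0.3 in OCI-AML3 (0.0222). In MV4-11, U-937 and HL-60 it was not called. TREM2, a lipid receptor of macrophages and osteoclasts, had 7.26 and 7.33 in treated and 5.46 and 5.24 in control MV4-11 cells (1.95 ± 0.28, adjusted p = 0.00917), and rose by 1.45 ± 0.33 in NOMO-1 (0.0651, blocked 0.000152). OCSTAMP, a fusion protein of osteoclasts, fell in MV4-11 (3.26 and 3.06 in treated and 5.34 and 5.23 in control cells, -2.13 ± 0.28, adjusted p = 0.00617) and rose in THP-1 (1.08 ± 0.37, adjusted p = 0.518, blocked 0.0274).

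**Figure D4:**
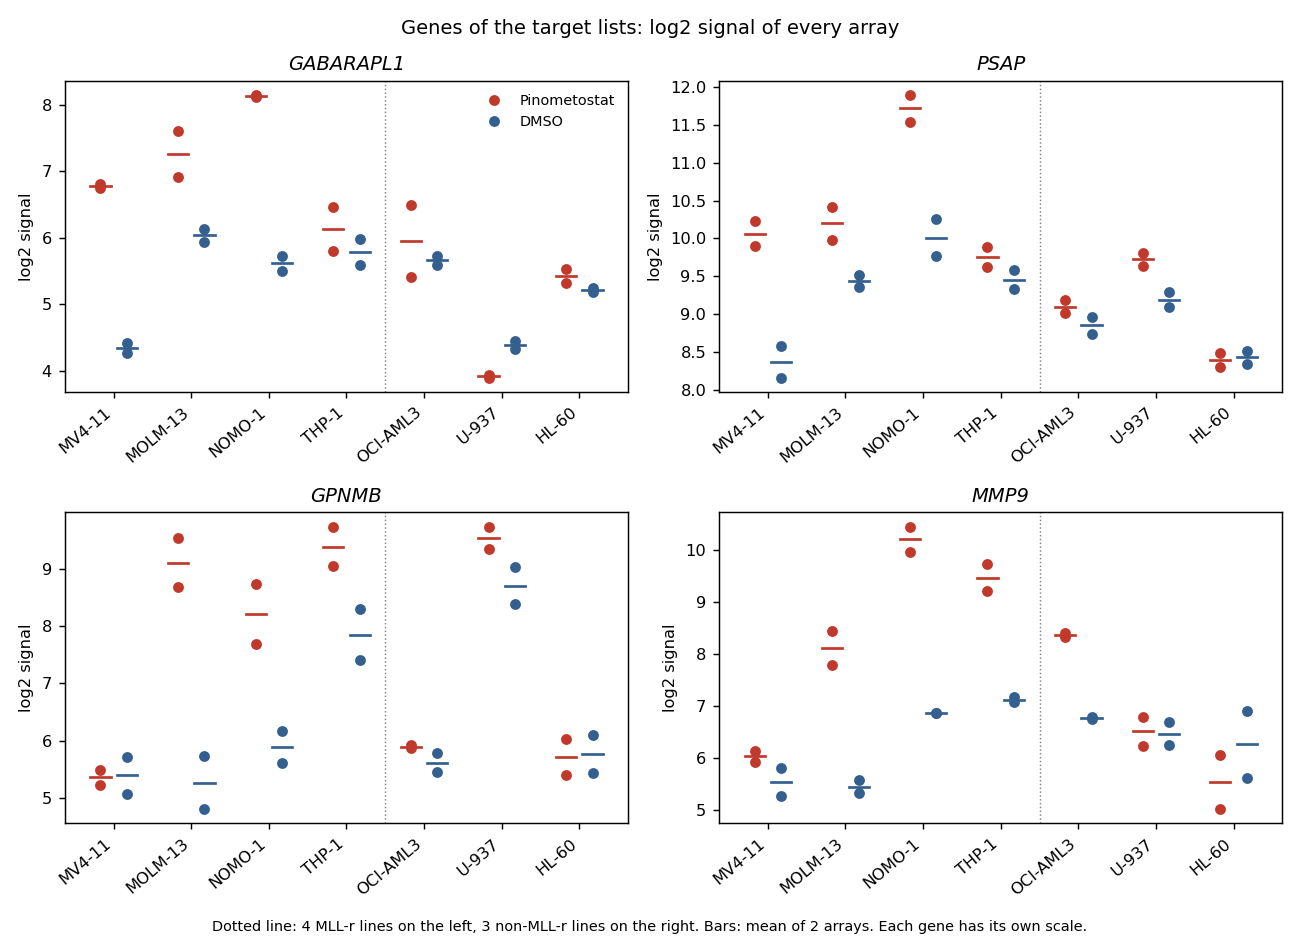
Log2 signal of GABARAPL1, PSAP, GPNMB and MMP9 in every array, with Pinometostat (red) left of DMSO (blue), bars at the mean of 2 arrays and 1 axis per gene. GABARAPL1 treated arrays stand apart from controls in MV4-11 and NOMO-1 (2.44 and 2.52 log2), GPNMB in MOLM-13 (3.84) and MMP9 in NOMO-1 (3.36).

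The MITF programs of other tissues gave 1 called melanocyte and 5 called mast cell pairs. Of 12 measured melanocyte targets 1 of 84 pairs was called higher (1.19%, against 1.74% over all genes; 3 without treated replicate 1 or without control replicate 1). The pigment enzyme TYRP1 had 5.98 and 5.07 in treated and 2.79 and 3.0 in control OCI-AML3 cells (2.63 ± 0.35, limma adjusted p = 0.00266), the control arrays lying at the low end of the scale. TYRP1 was called in none of the other 6 lines, where its changes ran from -0.27 to 0.72, and RAB27A, which moves melanosomes and also secretory granules of blood cells, was called nowhere (-0.82 in MV4-11 to 0.67 in NOMO-1). Of 9 mast cell targets 4 of 63 pairs were called higher (6.35%, against 1.74%) and 1 lower (1.59%, against 0.896%), and without control replicate 1 these were 2 and 0. The tryptase TPSB2 had 6.33 and 6.67 in treated and 4.71 and 5.19 in control MOLM-13 cells (1.55 ± 0.34, adjusted p = 0.53, blocked 0.00408). FCER1A, the receptor for immunoglobulin E, rested on 1 treated array in NOMO-1 (5.06 and 3.51, against 2.59 and 2.49 in control cells, 1.74 ± 0.49, adjusted p = 0.141, blocked 0.00015). In MV4-11 too, 1 array carried it (5.72 and 3.96 in treated and 3.48 and 3.89 in control cells, 1.16 ± 0.49, adjusted p = 0.464). The prostaglandin D synthase HPGDS had 4.57 and 4.48 in treated and 3.2 and 3.61 in control HL-60 cells (1.11 ± 0.34, adjusted p = 1.0). KIT, the stem cell factor receptor, fell in NOMO-1, where the control arrays differed strongly (3.56 and 3.5 in treated and 6.66 and 4.52 in control cells, -2.06 ± 0.6, adjusted p = 0.156, blocked 0.000109).

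Of 4 measured factors listed as opposing MiT/TFE proteins (BHLHE40, BHLHE41, MYC and ZKSCAN3), 3 of 28 pairs rose (10.7%, against 1.74% over all genes) and 0 fell. BHLHE41, a repressor of the circadian system that binds CACGTG, had the largest change of all genes named here, with 8.32 and 8.34 in treated and 4.07 and 4.03 in control NOMO-1 cells (4.28 ± 0.32, or 19.43-fold, limma adjusted p = 0.000614). It had 4.75 and 4.05 in treated and 3.17 and 3.48 in control THP-1 cells (1.08 ± 0.33, adjusted p = 0.374, blocked 0.0311). Its relative BHLHE40 rose in NOMO-1, with 9.41 and 9.34 in treated and 7.98 and 7.53 in control cells (1.62 ± 0.34, adjusted p = 0.0495). NOMO-1 held the largest changes of both repressors, of TFE3 and TFEB, and most called CLEAR targets. It was also the line with the highest shares of all genes called (4.75% higher and 3.12% lower), and neither TFE3 nor TFEB was called there. A link among these changes was not tested. Among 18 other bHLH leucine zipper factors, 1 pair of 126 rose and 3 fell (0.794% and 2.38%, against 1.74% and 0.896% over all genes). The MAX partner MXD1 rose in NOMO-1 (10.43 and 10.06 in treated and 8.65 and 7.99 in control cells, 1.93 ± 0.37, adjusted p = 0.0321). SREBF1, the regulator of lipid synthesis, fell in MV4-11, NOMO-1 and OCI-AML3 by 1.05, 1.04 and 1.1 log2 (SE 0.33, 0.37 and 0.4, adjusted p = 0.242, 0.277 and 0.556, blocked 0.02, 0.00365 and 0.0154).

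Markers of monocytes and macrophages, cells in which MiT/TFE targets are also expressed, were called higher in every line but HL-60, also in THP-1, OCI-AML3 and U-937, which had 0 called CLEAR targets. Of 21 measured markers, 44 of 147 pairs were called higher (29.9%, against 1.74% over all genes) and 0 lower, 12 of them in NOMO-1, 8 each in THP-1 and OCI-AML3, 6 each in MV4-11 and MOLM-13, 4 in U-937 and 0 in HL-60. Their median change was 1.78 in NOMO-1 and 0.16 to 0.54 in the other lines, and their summed level, as a mean per gene, ran from 4.88 to 10.17 over the treated and from 4.72 to 8.43 over the control lines. CD14, CD86, CLEC7A, ITGAM, LYZ, MERTK, S100A8 and S100A9 were each called in at least 3 lines. The macrophage genes MRC1 (3.97 ± 0.36, limma adjusted p = 0.0014) and VSIG4 (3.42 ± 0.37, 0.00276) were called in NOMO-1 alone of the 7 lines. Markers of B cells and erythroid cells had 0 called pairs of 28 each, those of T cells and megakaryocytes 1 of 35 each, both in NOMO-1, and the 7 measured myeloid identity markers 6 higher and 1 lower of 49. The platelet chemokine PPBP had 9.66 and 9.08 in treated and 5.47 and 5.62 in control NOMO-1 cells (3.82 ± 0.35, limma adjusted p = 0.00144), and the T cell gene CD2 had 3.85 and 3.65 in treated and 2.39 and 2.36 in control cells (1.38 ± 0.33, adjusted p = 0.0783, blocked 0.000266). The part of these marker changes in the changes of TFEC, the CLEAR genes and the macrophage targets was not tested. T cell markers averaged 2.88 to 3.29 in treated and 2.84 to 3.13 in control lines, near the low end of the scale, and melanocyte targets averaged 4.4 to 4.84 in treated and 4.33 to 4.63 in control lines. Of the genes that mark the lines as myeloid, the pan-leukocyte gene PTPRC had control means of 8.53 to 10.39, the factor SPI1, which encodes PU.1, 8.65 to 9.96, CEBPA 6.97 to 9.33 and the granule enzyme MPO 5.0 to 12.14.

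**Figure D5:**
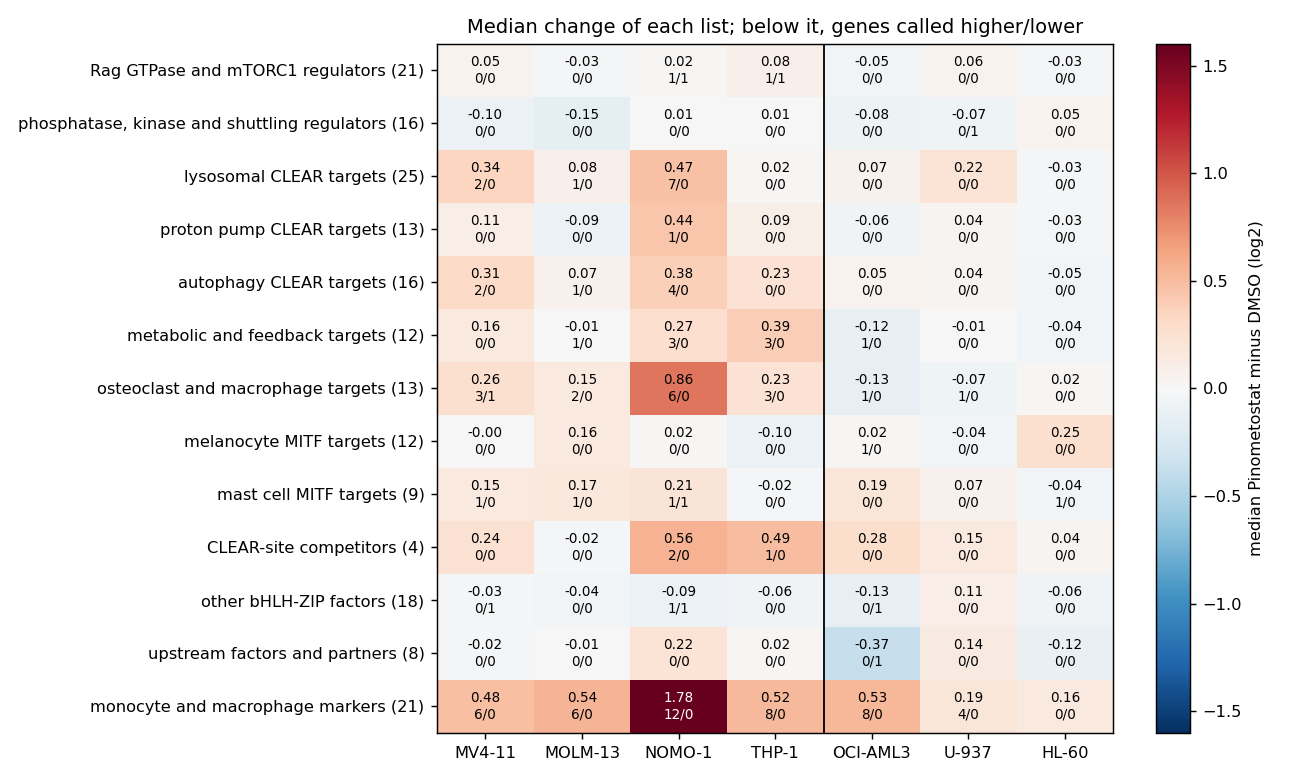
Median change (Pinometostat minus DMSO, log2, color) of each gene list in each line, with the number of genes called higher/lower under it and the number measured in brackets; the color scale saturates below the NOMO-1 monocyte value. NOMO-1 has the highest median for CLEAR lists (0.38 to 0.47), osteoclast and macrophage targets (0.86) and monocyte markers (1.78), and the Rag and phosphatase lists stay between -0.15 and 0.08 in every line.

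With the 7 line changes as the samples, limma found 0 of 17687 genes at an adjusted p under 0.05 for the mean change (2301 at an unadjusted p under 0.05, which is 13%, 5.78% higher and 7.23% lower), and 0 for MLL-r minus non-MLL-r lines (1093 unadjusted, 6.18%). Of 199 listed genes that are not members, 48 had an unadjusted p under 0.05 in this fit for the mean, 41 higher (20.6%, against 5.78% of all genes) and 7 lower (3.52%, against 7.23%). Of the 41, 13 are monocyte and macrophage markers and 14 are CLEAR targets. The lists were chosen with earlier results of these data known, so these shares describe the lists. CD86, CLEC7A, S100A8 and S100A9 were higher in 7 of 7 lines, by 1.39, 1.84, 1.84 and 1.28 log2 on average (limma adjusted p = 0.152, 0.158, 0.134 and 0.149). GABARAPL1 had the largest mean change of the CLEAR genes named here, 0.94 ± 0.33 (adjusted p = 0.298), and MLL-r exceeded non-MLL-r lines by 1.62 ± 0.48 in it (adjusted p = 0.787).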

How the data were processed

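Signals were deposited on the log2 scale after the authors ran RMA in R 3.6.1, which subtracts background, quantile-normalizes the arrays and summarizes each probe set. The 27189 table entries were joined to gene names: 17709 probe sets carry 1 symbol, 9480 entries have no name here and were left out, and 20 genes with several probe sets were averaged, giving 17687 genes. Quantile normalization forces like distributions, so shifts of all genes together cannot be seen. For each line, 2 treated and 2 control arrays were compared with limma 3.58.1 (lmFit, eBayes, R 4.3.3) without a signal filter. Changes planted in simulated data were recovered on average. The simulated arrays were independent, so this does not test the p-values of arrays paired as below. Adjusted p is Benjamini-Hochberg over all genes. A gene was called (rose or fell) when its change reached 1 log2 in size and its unadjusted p was under 0.05. Statements over lines used limma on 7 line differences. The number of arrays limits the precision.

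Replicate numbers pair the arrays: deviations of same-numbered arrays from their condition means correlated at 0.421 (HL-60) to 0.635 (NOMO-1). The fits leave the pairing out. Blocked values are adjusted p of the blocked fit, given where the block moved an adjusted p under 0.05.

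The members and 18 gene lists, written from general knowledge, were chosen with earlier results of these data known. Named genes are the members, list genes called in at least 3 lines or with the 4 largest called changes (with under 2 called, the 2 largest changes), and those most correlated with a member. The share of pairs called describes a list in place of a set test. Some genes of the lists were not analysed here. Promoter windows come from RefSeq, GRCh38.p14, whose coordinates were not matched to the array's own build.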

Additional observations from a re-analysis of the deposited data

Results flagged for a closer look

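TFE3 in NOMO-1 stood apart from the other MLL-r lines, with a change of 0.58 (gap to the next line 0.972 of the range) and a treated mean of 8.29 (0.874 of the range). The TFE3 control mean of HL-60, 6.98, was far below the other 6 lines (0.609 of the range), and its control arrays differed from each other (7.33 and 6.62). In all, 24 sets of line values were examined in this way, and chance marks about 1 in 20.

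Directions opposed each other between lines in both replicate numbers, without a test of the difference, for TFEC in NOMO-1 (-0.63, where the other 6 lines were above 0), for MITF in U-937 (-0.27, where MOLM-13, NOMO-1, THP-1, OCI-AML3 and HL-60 were above 0) and for TFEB in NOMO-1 (0.43, where OCI-AML3 and HL-60 were below 0). Among the listed genes, all MLL-r lines moved one way and all non-MLL-r lines the other for ALAS2 (MLL-r minus non-MLL-r -0.36 log2), GATA2 (-0.72), HDC (0.59), OSCAR (0.93) and UCP1 (0.41). None of these 5 differences passed an adjusted p under 0.05 in limma over all genes.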

How the results depend on the processing

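Of the 28 member changes, 134 of 140 values under leave-one-out or median centring stayed within 1 SD (pooled within condition) of the value given. Another 6 moved further, and 0 of the called changes changed sign. Leaving out 1 of 2 arrays cannot move a change beyond this SD, apart from rounding. It also cannot reverse a pair whose arrays do not overlap, so these counts say little about stability. The mean paired change equals the unpaired one by construction. Each member has 1 probe set, so the separate use of probe sets could give no other value. The replicate block left the counts at an unadjusted p as they were, 4 member pairs, 18 CLEAR pairs higher and 0 lower, and 99 listed pairs higher and 9 lower. The block does not alter the size of a change, so only the p part of the rule could move these counts. Calls rest on 2 arrays against 2, and leaving out 1 array moved the member pairs called between 3 and 5, CLEAR pairs lower between 1 and 2, and listed pairs lower between 15 and 21. TFEC in NOMO-1 turned to 0.08 without treated replicate 2, and passed the rule at -1.35 without treated replicate 1, as MITF in OCI-AML3 did at 1.17. The lone array of a condition was then assumed to vary like the others.

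At an adjusted p under 0.05, called pairs were 1 for the members, 5 for CLEAR targets higher, 48 for listed genes higher and 1 for listed genes lower. With the replicate block too, they were 3 for the members, 27, 115 and 17. Among genes brighter than the median gene, 0 member pairs were called, since the mean of TFEC over all 28 arrays lies below it, although its means in MV4-11 and THP-1 were above the array medians, and 5 listed pairs were lower. Without NOMO-1, 6 CLEAR pairs and 60 listed pairs were higher. The block at an adjusted p and the counts without NOMO-1 were chosen after seeing the data. Over lines, 0 listed genes passed an adjusted p with or without NOMO-1, and 48 against 40 an unadjusted p. TFEC in HL-60 and OCI-AML3 lay near the low end of the signal scale.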
